A study of Mus musculus with 23 samples.

Results

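Cytoplasmic beta-actin and gamma-actin, the products of Actb and Actg1, are 2 of the 8132 genes named on the array of this study of mouse embryonic stem (ES) cells. All probe sets annotated to these symbols were taken, together with the array maker's beta-actin control probe sets, which gives 9 of 12502 probe sets. Actg1 had 1 probe set (96573_at), and Actb had 2, the brighter called here the first (101578_f_at) and the other the second (95705_s_at). The beta-actin controls consist of 3 sense probe sets, for the 5′ end, the middle and the 3′ end of the transcript, and 3 antisense ones. The names ending in _f_at and _s_at mark probe sets that can also hybridise to related transcripts.

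Total RNA was collected 72 h after transfection and measured on 23 arrays in 12 groups. The groups combine 4 ES cell lines with 3 plasmids: SRF-VP16, SRFdM-VP16, which the labels name as its control, and vector. The lines are E81 (-/-), E100 (-/-), E99 (written +/- on some labels and -/+ on others) and E14 wild type. Each group had 2 arrays except E100 with vector, which had 1. Which gene the -/- and +/- signs refer to is not on the labels, nor do they say what was changed in SRFdM-VP16, how many clones a line represents or what share of cells took up the plasmid. VP16 is a strong viral activation domain, fused here to the transcription factor SRF (serum response factor).

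Actb and Actg1 encode the nonmuscle actins that build the cortex, stress fibres and protrusions of most cells. SRF binds a DNA element called the CArG box, and its MRTF cofactors are held inactive by unpolymerised actin, so that actin genes are at once targets of SRF and part of the circuit that regulates it. Actb is also widely used as a reference gene, on the premise that its level changes little between conditions. The comparisons below ask whether the level of either gene followed the plasmid or the genotype.

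The upstream sequence of Actg1 is shown because it carries a CArG box and because Actg1 gave the clearest difference in these data. Among the members, 1 of 2 genes (Actg1) matched the RefSeq promoter table (build GRCm38.p6), whose windows run from 250 bases before to 50 bases after a gene's start. The Actg1 window lies on the minus strand of chromosome 11, and its upstream part is chr11:120348496-120348745. It holds 1 CArG box, printed in capitals, that begins 90 bases before the start.

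Actg1 upstream: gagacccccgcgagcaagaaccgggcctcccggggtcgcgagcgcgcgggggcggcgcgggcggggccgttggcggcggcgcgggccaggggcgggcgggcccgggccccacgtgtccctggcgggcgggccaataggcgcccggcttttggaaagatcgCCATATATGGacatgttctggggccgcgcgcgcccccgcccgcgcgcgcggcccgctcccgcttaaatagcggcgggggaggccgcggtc

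The element is symmetrical, so both strands were searched at once, and the motif was called only where it matched in full. It was found in 535 of 32851 windows, or 1.63%, and 1.81% of genes had it in any window. Among the muscle actins, 2 of the 3 genes with a window also held one: Acta1 (chr8:123894829-123894858, minus strand), where it begins 73 bases before the start, and Actc1 (chr2:114052903-114052932, minus strand), where it begins 47 bases before. The window of Acta2 held no match. The elements found are set side by side to show how they differ, with 10 bases of flank on each side and the CArG box in capitals. The match is a description of sequence.

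Actg1: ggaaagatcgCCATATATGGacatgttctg
Acta1: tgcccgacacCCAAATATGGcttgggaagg
Actc1: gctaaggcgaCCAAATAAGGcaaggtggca

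The deposited values are linear intensities, of which 29.1% were at or below 0 (23.5% to 43.6% per array), and array medians ran from 53.5 to 207. The brightest value on an array lay between 33972 and 44054. In some groups Actg1 and the beta-actin 5′ and middle controls came near it, reaching 41452, 35012 and 38659. In E81 with SRFdM-VP16 they were far lower, with Actg1 at 7159 to 9812 and the 5′ control at 1109 to 3190. The 3 antisense controls stayed between -256 and 420 on all 23 arrays. All 9 ES cell markers on the array were above the floor of 58 on every array. One array, the first of E81 with SRFdM-VP16, stood apart: its median correlation with the others was 0.879, against 0.900 to 0.944 elsewhere, and each beta- or gamma-actin difference that passed a test using it is also given without it.

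**Figure D1:**
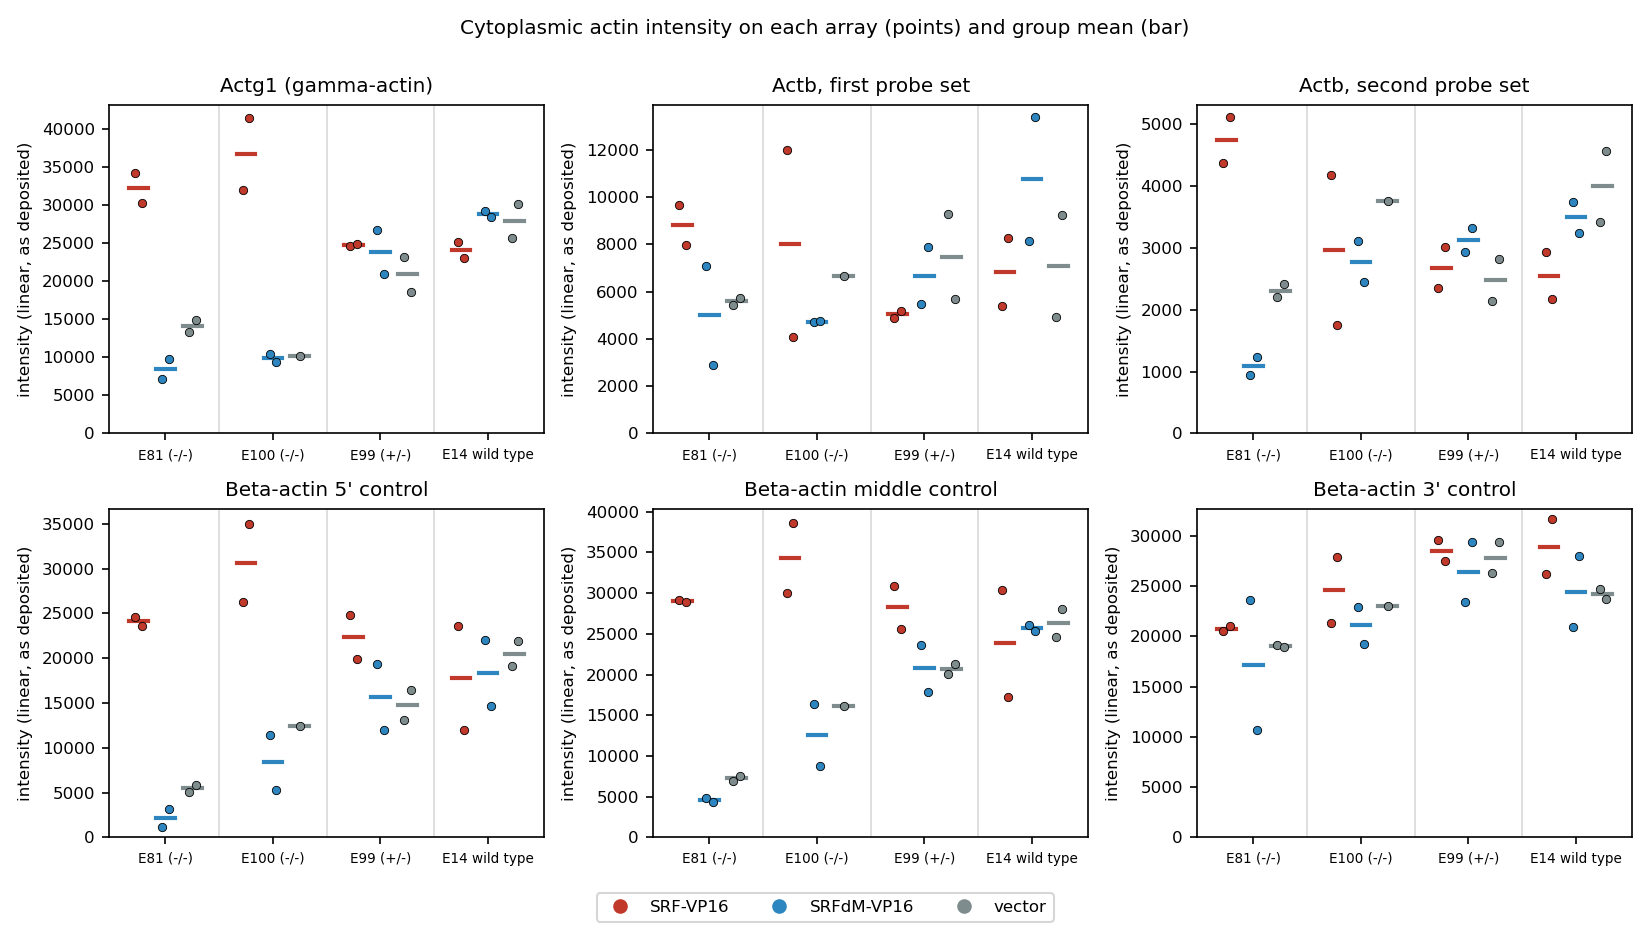
Intensity (linear, as deposited) of the 6 sense probe sets on each array, by line and plasmid, in 1 panel per probe set, with points for arrays and bars for group means. Actg1 lay between 30227 and 41452 in the -/- lines with SRF-VP16 and between 7159 and 10381 with SRFdM-VP16.

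In the -/- lines, gamma-actin RNA was 3.76 times as high with SRF-VP16 as with SRFdM-VP16, and the beta-actin 5′ and middle probe sets were higher by still larger factors. Of the 6 sense probe sets, 4 rose and 0 fell at an adjusted p under 0.05, where 2.49% of the 9664 probe sets tested rose and 2.84% were called in either direction. The median difference over the 6 was 1.48 on the log2 scale, beside 0.04 over all probe sets. The first Actb probe set and the beta-actin 3′ probe set did not pass. Of all probe sets 241 rose and 33 fell, against 241 and 110 after quantile normalization and 167 and 119 after division by the array median, which moved the median of all from 0.04 to -0.16.

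Actg1 read 34211 and 30227 in E81 and 31974 and 41452 in E100 with SRF-VP16, against 7159 and 9812 in E81 and 10381 and 9375 in E100 with SRFdM-VP16. With vector it read 13268 and 14870 in E81 and 10104 in E100. Every SRF-VP16 array of the -/- lines was above every SRFdM-VP16 and vector array of these lines. The mean was 34466 ± 4934.5 with SRF-VP16 and 9181.8 ± 1410 with SRFdM-VP16 (SD, n = 4 each), a log2 difference of 1.91 ± 0.14 (SE), or 3.76-fold (limma, adjusted p = 7.2e-06). The difference was 1.94 in E81 and 1.88 in E100, and the test of the difference between the lines gave 0.06 ± 0.28 (limma, adjusted p = 0.98). None of the 6 probe sets passed that test, where 0.155% of all probe sets did. Without the second E81 array with SRFdM-VP16, the beta-actin 5′ (2.48, adjusted p = 0.045) and second Actb probe sets (2.34, adjusted p = 0.032) passed it, and the second Actb probe set also did without the first E100 array with SRF-VP16 (2.78, adjusted p = 0.0034). Without the array that stood apart, the Actg1 difference between the plasmids was 1.80 (adjusted p = 5.2e-05), and that between the lines turned to -0.17.

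The beta-actin 5′ probe set read 24569 and 23638 in E81 and 26314 and 35012 in E100 with SRF-VP16, against 1109 and 3190 in E81 and 11471 and 5323 in E100 with SRFdM-VP16. The groups did not overlap. The difference was 2.82 ± 0.34 on the log2 scale, or 7.06-fold (limma, adjusted p = 0.00051), with 3.68 in E81 and 1.96 in E100. It was 2.44 without the array that stood apart (adjusted p = 0.0016). It did not pass in a fit of these 8 arrays alone (adjusted p = 0.073) or in E100 alone (adjusted p = 0.074, log2 1.96).

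The beta-actin middle probe set followed the same order. It read 29129 and 28893 in E81 and 29985 and 38659 in E100 with SRF-VP16, against 4892 and 4300 in E81 and 16343 and 8736 in E100 with SRFdM-VP16. No array of one plasmid reached the range of the other. The difference was 2.09 ± 0.21, or 4.25-fold (limma, adjusted p = 1e-04), with 2.66 in E81 and 1.51 in E100. It was 2.13 without the array that stood apart (adjusted p = 0.00061).

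The beta-actin 3′ probe set, which lies nearest the poly(A) tail, behaved otherwise. It read 20526 and 21008 in E81 and 21321 and 27909 in E100 with SRF-VP16, against 23611 and 10655 in E81 and 22957 and 19295 in E100 with SRFdM-VP16. The groups overlapped, and the difference was 0.30 ± 0.21 on the log2 scale with a 95% interval of -0.15 to 0.75 (limma, adjusted p = 0.61). Leaving out the array that stood apart, which read 23611, gave 0.59 (adjusted p = 0.082).

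The 2 Actb probe sets that are not controls were dimmer and more scattered. The first read 9649 and 7992 in E81 and 11987 and 4075 in E100 with SRF-VP16, against 7105 and 2899 in E81 and 4699 and 4739 in E100 with SRFdM-VP16. The second E100 array with SRF-VP16 was the lowest of its group and lay inside the SRFdM-VP16 range. The difference was 0.76 ± 0.36 on the log2 scale, with a 95% interval of -0.02 to 1.54 (limma, adjusted p = 0.39), and it was 1.08 without the array that stood apart (adjusted p = 0.22).

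The second Actb probe set read 4374 and 5105 in E81 and 4177 and 1747 in E100 with SRF-VP16, against 952 and 1232 in E81 and 3105 and 2443 in E100 with SRFdM-VP16. It was apart by plasmid in E81 and not in E100. The pooled difference was 1.05 ± 0.24, or 2.07-fold (limma, adjusted p = 0.031), with 2.13 in E81 and -0.03 in E100, and the test between the lines gave 2.15 ± 0.48 (limma, adjusted p = 0.16). The call was lost with vector as the control (0.28, adjusted p = 0.67), after division by the array median (0.67, adjusted p = 0.21) or Gapdh 3′ (0.97, adjusted p = 0.29), and when only these 8 arrays were fitted (adjusted p = 0.29). It was also lost without any 1 of 6 of the 8 arrays: at 0.96, 0.96 and 1.14 without the first E81 and the second and first E100 arrays with SRFdM-VP16, and at 1.10, 0.99 and 0.73 without the first and second E81 and the first E100 arrays with SRF-VP16.

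**Figure D2:**
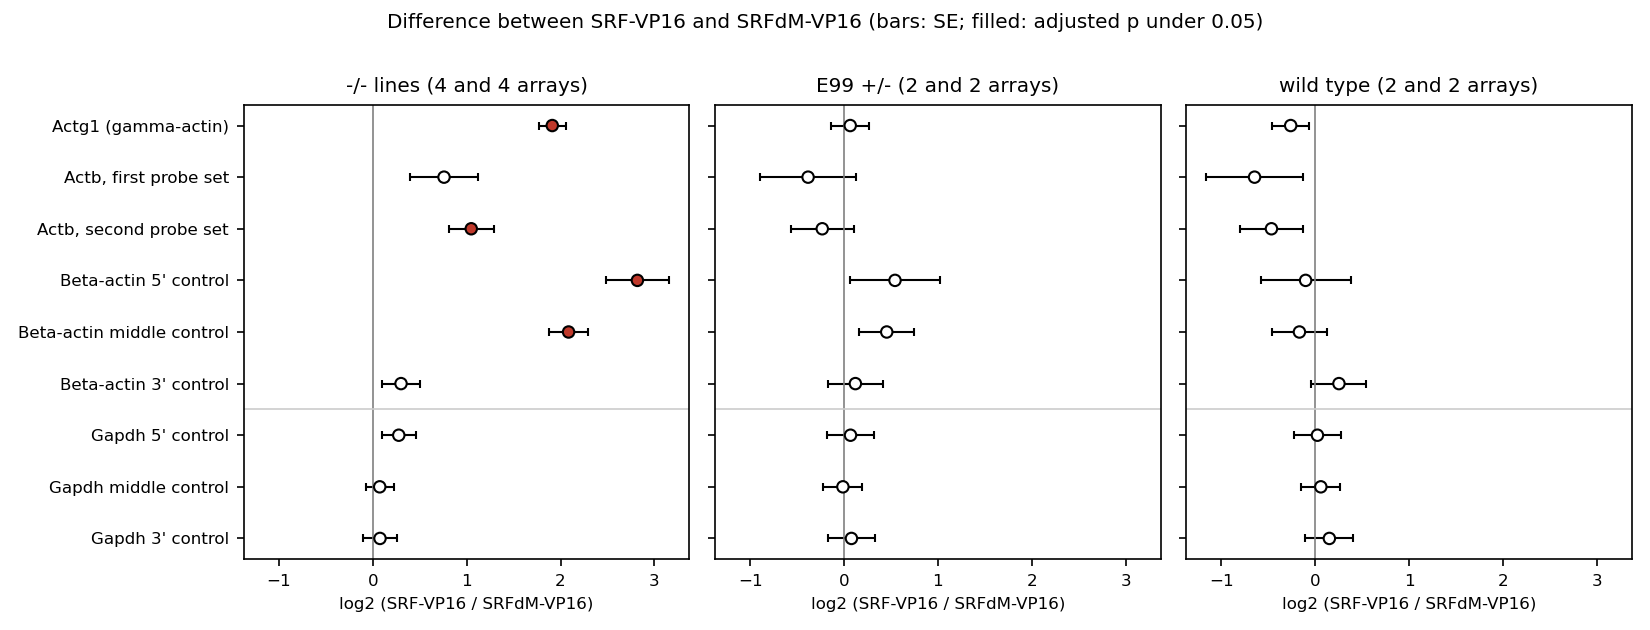
Log2 difference of SRF-VP16 minus SRFdM-VP16 for each Actb, Actg1 and Gapdh probe set in the -/- lines, E99 and wild type, with points for limma estimates, bars for SE and filled points for an adjusted p under 0.05. In the -/- lines the 5′ and middle beta-actin probe sets (2.82 and 2.09) and Actg1 (1.91) lie highest, while the Gapdh probe sets lie near 0.

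In wild type and in E99, none of the 6 probe sets passed the test (limma), against 0.0207% and 0.0414% of all probe sets called, and none of the 6 had an unadjusted p under 0.05, beside 3.58% and 4.50% of all probe sets. Actg1 in wild type read 25143 and 23026 with SRF-VP16, against 29243 and 28474 with SRFdM-VP16 and 25720.7 and 30085 with vector. Both SRF-VP16 arrays were below the others, with a difference from SRFdM-VP16 of -0.26 ± 0.20 and a 95% interval of -0.69 to 0.17 on the log2 scale (limma, adjusted p = 1). In E99, Actg1 read 24584 and 24829 with SRF-VP16, against 20906 and 26649 with SRFdM-VP16 and 18604 and 23180 with vector, and the groups overlapped. That difference was 0.07 ± 0.20, with a 95% interval of -0.37 to 0.50.

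Beta-actin in wild type scattered widely between arrays of 1 group. The 5′ probe set read 23597 and 11940 with SRF-VP16, against 22080 and 14718 with SRFdM-VP16, a difference of -0.10 ± 0.48. In wild type the first Actb probe set read 5376 and 8276 with SRF-VP16, against 8146 and 13389 with SRFdM-VP16, a difference of -0.65 ± 0.51. In E99 the 5′ probe set read 24831 and 19935 with SRF-VP16, against 12042 and 19369 with SRFdM-VP16, a difference of 0.54 ± 0.48. With 2 arrays a group these intervals are wide: for the wild-type 5′ probe set, -1.14 to 0.93.

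The difference between genotypes was tested itself. Wild type was a single line, E14, and the -/- lines were E81 and E100. Here and below, genotype therefore cannot be told apart from line, and the p-values do not measure the spread between lines. The SRF-VP16 effect on Actg1 was larger in the -/- lines than in wild type by 2.17 ± 0.25 on the log2 scale (limma, adjusted p = 0.0019), with a 95% interval of 1.65 to 2.70. Of the 6 probe sets, 2 passed this test, Actg1 and the beta-actin middle one (2.26 ± 0.36, limma, adjusted p = 0.036), where 0.0931% of all probe sets did. The 5′ probe set had the largest estimate, 2.92 ± 0.59, and did not pass (limma, adjusted p = 0.14). The first Actb probe set (1.41 ± 0.63, limma, adjusted p = 0.91) and the 3′ probe set (0.05 ± 0.36) did not pass.

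The Actg1 difference did not pass in a fit of these arrays alone (adjusted p = 0.07) or with arrays divided by their median (2.07, adjusted p = 0.14) or by Gapdh 3′ (2.25, adjusted p = 0.10). The middle probe set lost its call after division by the array median (2.15, adjusted p = 0.24) or Gapdh 3′ (2.33, adjusted p = 0.34), when only these arrays were fitted (adjusted p = 0.28) and with vector as the control (1.74, adjusted p = 0.12). It also lost it with the replicate number as a block (adjusted p = 0.056) and without any 1 of 5 arrays: the first or second wild-type array with SRFdM-VP16 (2.24 and 2.27), the second with SRF-VP16 (1.84), or the first or second E81 array with SRF-VP16 (2.25 and 2.26). The 5′ probe set passed after quantile normalization (2.80, adjusted p = 0.047) and without the second E81 array with SRFdM-VP16 (3.30, adjusted p = 0.015), and the second Actb probe set without the second E100 array with SRF-VP16 (1.83, adjusted p = 0.019). Actg1 was at 2.06 (adjusted p = 0.0027) and the middle probe set at 2.30 (adjusted p = 0.046) without the array that stood apart.

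Over all 4 lines, Actg1 differed by 0.91 ± 0.10 on the log2 scale between SRF-VP16 and SRFdM-VP16 (limma, adjusted p = 0.00034), a mean over lines that differed by the test just given. Of the 6 probe sets, 3 rose, against 1.85% of all probe sets (2.02% in either direction), namely Actg1, the beta-actin 5′ (1.52 ± 0.24, adjusted p = 0.0055) and middle ones (1.11 ± 0.15, adjusted p = 0.0013). The other probe sets of beta-actin did not pass: the first Actb probe set was at 0.12 ± 0.26 (adjusted p = 0.90), the second at 0.35 ± 0.17 (adjusted p = 0.40) and the 3′ one at 0.24 ± 0.15 (adjusted p = 0.53). Dividing arrays by their median ended the calls of Actg1 (0.50, adjusted p = 0.10) and the middle probe set (0.71, adjusted p = 0.069), and vector as the control ended that of the 5′ probe set (0.94, adjusted p = 0.094). Without the array that stood apart, Actg1 was at 0.85, the 5′ probe set at 1.33 and the middle one at 1.14 (adjusted p = 0.00092, 0.0084 and 0.0043).

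SRFdM-VP16 was compared with vector to see how far the control plasmids differed. Over all lines, neither Actg1 (-0.14 ± 0.11, limma, adjusted p = 0.60) nor the first Actb probe set (-0.08 ± 0.27, adjusted p = 0.92) passed, where 0.797% of all probe sets did and the median of all was -0.21. None of the 6 sense probe sets passed, and the beta-actin 5′ one was lowest (-0.58 ± 0.25, limma, adjusted p = 0.33). In E81 alone, Actg1 was at -0.75 ± 0.20 with SRFdM-VP16 relative to vector, and in E100 at -0.04 ± 0.25. The beta-actin 5′, second Actb and middle probe sets were at -1.54 ± 0.48, -1.09 ± 0.34 and -0.66 ± 0.29 in E81. In E100 they were at -0.67, -0.445 and -0.43. Against vector instead of SRFdM-VP16, the SRF-VP16 difference of Actg1 in the -/- lines was 1.52. That of the beta-actin 5′ probe set was 2.14 in E81 and 1.29 in E100, and that of the middle one 2.00 and 1.08. These 5′ and middle values were smaller than those against SRFdM-VP16.

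Actg1 was lower in the -/- lines than in wild type with either control plasmid. With vector it averaged 12747.3 ± 2425.3 in the -/- lines (SD, n = 3) and 27902.8 ± 3086 in wild type (SD, n = 2), a log2 difference of -1.22 ± 0.19, or 2.34-fold lower (limma, adjusted p = 0.011). With SRFdM-VP16 it averaged 9181.8 ± 1410 in the -/- lines (SD, n = 4) and 28858.5 ± 543.8 in wild type (SD, n = 2), a difference of -1.67 ± 0.17, or 3.17-fold lower (limma, adjusted p = 0.0011). In both cases every -/- array was below both wild-type arrays. Of all probe sets, 0.103% fell and 0.228% were called with vector, and 0.0517% fell and 0.0621% were called with SRFdM-VP16.

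Among the other probe sets, the beta-actin middle one fell in the -/- lines with SRFdM-VP16 (-1.80 ± 0.26, limma, adjusted p = 0.019), so that 2 of the 6 passed there and 1 of 6 with vector. With vector its difference was -1.28 ± 0.28 (limma, adjusted p = 0.12), and all 3 -/- arrays (6939 and 7564 in E81, 16144 in E100) lay below the wild-type ones (24614.5 and 28066). The 5′ probe set was at -1.32 ± 0.45 with vector (adjusted p = 0.73) and -2.23 ± 0.42 with SRFdM-VP16 (adjusted p = 0.14). The first Actb probe set was at -0.14 ± 0.48 with vector and -1.17 ± 0.45 with SRFdM-VP16 (adjusted p = 1 in each). The 3′ probe set was at -0.21 and -0.41.

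The vector call for Actg1 was lost without the second wild-type array (-1.11, adjusted p = 0.089) or without the E100 array (-0.99, adjusted p = 0.10), while without the E100 array the middle probe set passed (-1.86, adjusted p = 0.021). Both Actg1 calls were lost in fits of the compared arrays alone (adjusted p = 0.26 with vector, 0.12 with SRFdM-VP16) and after division by the array median (0.45 and 0.054) or Gapdh 3′ (0.28 and 0.083). With SRFdM-VP16 the middle probe set no longer passed with arrays divided by their median (-1.89, adjusted p = 0.089) or Gapdh 3′ (-1.84, adjusted p = 0.27), with the floor at the 60th percentile (adjusted p = 0.07), when only these arrays were fitted (adjusted p = 0.34) and without the second wild-type array (-1.82, adjusted p = 0.17). The 5′ probe set passed there after quantile normalization (-2.26, adjusted p = 0.028), with the filter at the 60th percentile (adjusted p = 0.047), with the inverse hyperbolic sine in place of the logarithm (adjusted p = 0.038) and without the second E81 array (-2.61, adjusted p = 0.0056). Without the array that stood apart, Actg1 was at -1.55 with SRFdM-VP16 (adjusted p = 0.0017) and the middle probe set at -1.84 (adjusted p = 0.032).

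With SRF-VP16 the order of the genotypes was the other way round for Actg1, which averaged 34466 ± 4934.5 in the -/- lines (SD, n = 4) and 24084.5 ± 1496.9 in wild type (SD, n = 2). The difference of 0.51 ± 0.17 on the log2 scale did not pass (limma, adjusted p = 0.32), although no -/- array was as low as a wild-type one. None of the 6 probe sets passed, against 0.455% of all probe sets. At an unadjusted p under 0.05, 1 of the 6 passed, beside 9.64% of all probe sets. For E99, the line labelled +/-, the Actg1 arrays with SRF-VP16 (24584 and 24829) lay within the wild-type range (23026 to 25143). With vector the E99 mean of 20892 ± 3235.7 (SD, n = 2) lay between those of the -/- lines and wild type. E99 was not tested against the other lines.

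**Figure D3:**
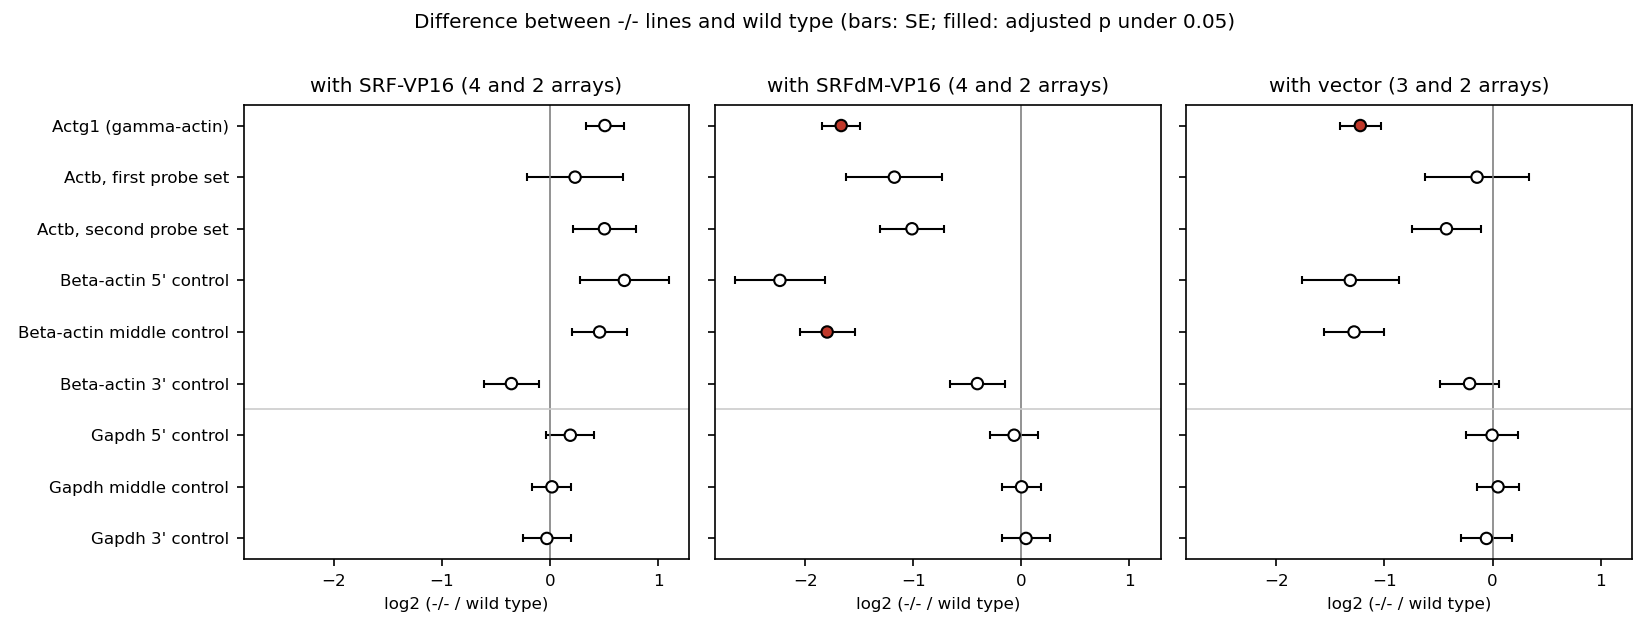
Log2 difference of the -/- lines minus wild type for each Actb, Actg1 and Gapdh probe set, with 1 panel per plasmid, points for limma estimates, bars for SE and filled points for an adjusted p under 0.05. Actg1 lies at 0.51 with SRF-VP16, -1.67 with SRFdM-VP16 and -1.22 with vector.

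Ranked over the 12 groups, Actg1 was highest in E100 and E81 with SRF-VP16 (means of 36713 and 32219), whose arrays overlapped. Wild type with SRFdM-VP16 and with vector followed at 28858.5 and 27902.8, overlapping each other and not their other neighbours, then E99 with SRF-VP16 (24706.5), wild type with SRF-VP16 (24084.5), and E99 with SRFdM-VP16 (23777.5) and vector (20892). Each neighbouring pair among those 4 overlapped. The -/- lines without SRF-VP16 came last: E81 with vector at 14069, E100 with vector at 10104, E100 with SRFdM-VP16 at 9878 and E81 with SRFdM-VP16 at 8485.5. Neighbours among the last 3 overlapped, while the E100 vector array lay above both E81 arrays with SRFdM-VP16 (7159 and 9812). E81 with vector lay above all of these without overlap.

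The first Actb probe set spread less by group and more by array. Its highest mean was 10767.5 ± 3707.4 in wild type with SRFdM-VP16 and its lowest 4719 ± 28.3 in E100 with SRFdM-VP16 (SD, n = 2 each). Of the neighbouring groups in its order, all but those on either side of E81 with vector overlapped. Across the 12 group means its Pearson correlation with Actg1 was 0.67, and that of the 5′ and middle controls with Actg1 was 0.85 and 0.86. These values describe 12 points that share arrays, and no test was made of them.

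The beta-actin controls cover 1 transcript from end to end, and the 5′ over 3′ ratio on an array is commonly read as a measure of how complete the labelled RNA is. In the -/- lines the log2 ratio was 0.27 ± 0.07 with SRF-VP16 (0.17 to 0.33) and -2.25 ± 1.49 with SRFdM-VP16 (-4.41 to -1.001, SD, n = 4 each), and with vector it ran from -1.90 to -0.89. The SRF-VP16 and SRFdM-VP16 arrays did not overlap. The difference of 2.52 had an exact two-sided permutation p of 0.0286, or 0.0571 after adjustment over the 14 ratio tests. This is the smallest p that 4 against 4 arrays allow when arrays are exchanged freely between lines. All 14 ratio tests ignored line in this way, although the SRFdM-VP16 means were -3.08 in E81 and -1.43 in E100. Without the array that stood apart, which had the ratio of -4.41, the difference was 1.80.

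The same ratio for Gapdh, a glycolytic enzyme also used as a reference, differed by 0.20 (0.14 ± 0.22 with SRF-VP16 and -0.06 ± 0.60 with SRFdM-VP16, exact permutation p = 0.686, n = 4 each). It turned to -0.09 without the array that stood apart and to -0.21 with vector as the control. Its lowest value, -0.93, came from the same array of E81 with SRFdM-VP16, which also had the lowest beta-actin ratio. Wild-type arrays had beta-actin ratios of -1.41 to -0.15 with SRF-VP16, -0.93 to 0.08 with SRFdM-VP16 and -0.37 to -0.12 with vector. In E99 they lay between -1.29 and -0.25.

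**Figure D4:**
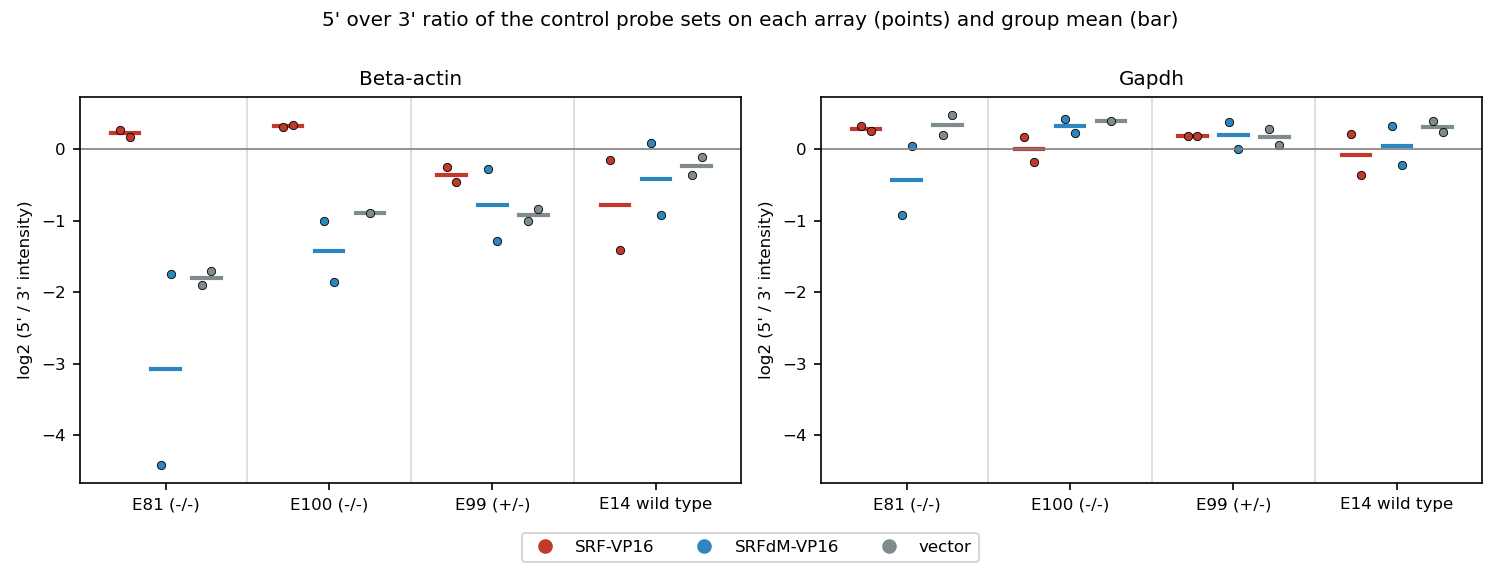
Log2 ratio of the 5′ to the 3′ probe set on each array, for beta-actin and for Gapdh, by line and plasmid, with bars for group means. The 4 -/- arrays with SRF-VP16 have beta-actin ratios of 0.17 to 0.33 and the 4 with SRFdM-VP16 have -4.41 to -1.001, while the Gapdh ratios of both groups lie between -0.93 and 0.41.

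Set against Gapdh on the same array, the size again differed by the position of the probe set. In the -/- lines the beta-actin to Gapdh ratio differed by 2.54 at the 5′ end, 2.01 in the middle and 0.22 at the 3′ end. The exact two-sided permutation p was 0.0286 (adjusted p = 0.0571) for the 5′ and middle ratios and 0.686 (adjusted p = 0.80) for the 3′ ratio, with n = 4 each. Actg1 over Gapdh 3′ differed by 1.84 (permutation p = 0.0286, adjusted p = 0.0571) and the first Actb probe set over Gapdh 3′ by 0.68 (permutation p = 0.286, adjusted p = 0.444). None of the 14 passed at 5% after adjustment. Without the array that stood apart, the 5′, middle and 3′ ratios differed by 2.17, 1.79 and 0.28, and Actg1 and the first Actb probe set over Gapdh 3′ by 1.66 and 0.83. Whether the 3′ probe set was limited by signal near the top of its range was not tested.

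Gapdh itself did not pass in the -/- lines: its 5′, middle and 3′ probe sets differed by 0.28 (limma, adjusted p = 0.58), 0.07 (adjusted p = 0.91) and 0.08 (adjusted p = 0.93). Of 12 measured reference genes other than Actb, 0 passed in either direction in the -/- lines, beside 2.84% of all probe sets, with a median of 0.09 beside 0.04 over all probe sets. B2m, a subunit of the MHC class I molecule, had the largest value in this list (3.48 ± 0.95, adjusted p = 0.076), Ywhaz, a 14-3-3 protein, was at 0.52 (adjusted p = 0.20), and Tfrc, the transferrin receptor, at 0.26 (adjusted p = 0.62).

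All 4 muscle actins also rose in the -/- lines with SRF-VP16, beside 2.49% of all probe sets. Actc1, cardiac alpha-actin, averaged 8185.8 ± 2368.9 with SRF-VP16 and 721 ± 478.3 with SRFdM-VP16 (log2 3.71 ± 0.36, limma, adjusted p = 9.2e-05). Acta1, skeletal alpha-actin, averaged 11097.5 ± 6090.5 with SRF-VP16 and -147.5 ± 206.6 with SRFdM-VP16 (adjusted p = 0.00024), and Acta2, smooth-muscle alpha-actin, 11312.5 ± 1730.7 and -200.8 ± 149.8 (adjusted p = 0.0088). Actg2, smooth-muscle gamma-actin, averaged 9364 ± 797.3 with SRF-VP16 and 3657.5 ± 1932 with SRFdM-VP16 (log2 1.51 ± 0.29, adjusted p = 0.010; SD, n = 4 each).

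In wild type 0 of the 4 passed (median 1.55), where 0.0207% of all probe sets did. In the test between genotypes 0 of the 4 passed (median 3.58, Actc1 3.61 with adjusted p = 0.060), where 0.0931% of all did. With shares this low over all probe sets, a count of 0 of 4 says little about the muscle actins. The probe sets of Actc1 and Actg2 have names ending in _f_at. The muscle actins share long stretches of sequence with Actb and Actg1, and cross-hybridisation between them was not tested. The striated-muscle marker list, of 6 genes on the array, summed to 1237 to 1725 in the -/- lines with SRF-VP16 and 626 to 1061 with SRFdM-VP16. With vector it summed to 886 to 1337, which overlapped the SRF-VP16 sums. Of its 6 genes, 2 were above the floor on all arrays, and Myl2, a cardiac myosin light chain, was at or below 0 on all 23. In these bulk samples, fewer cells of a type and less RNA per cell cannot be told apart.

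Several groups of proteins that handle cytoplasmic actin were followed, and their counts stand beside the 2.49% of all probe sets that rose and the 2.84% called in either direction in the -/- lines. In lists of 8 to 17 genes, a count of 0 is near that share. Of 9 monomer-binding and severing genes, 2 rose in the -/- lines: Wdr1, which aids cofilin in filament disassembly (2.29 ± 0.39, limma, adjusted p = 0.0052), and Gsn, gelsolin (4.37 ± 1.07, adjusted p = 0.045, with its SRFdM-VP16 mean below the floor). Tmsb4x, thymosin beta-4, the monomer-sequestering peptide, was at 1.06 ± 0.50 (adjusted p = 0.38). Of 17 capping and crosslinking genes, 3 rose: Vcl, vinculin (3.92 ± 0.60, adjusted p = 0.0027), Actn1, alpha-actinin (1.48 ± 0.26, adjusted p = 0.0072), and Tpm4, a tropomyosin (3.24 ± 0.60, adjusted p = 0.0094). None of the 11 nucleation genes passed, with Actr3, an Arp2/3 subunit, at 0.42 ± 0.15 (adjusted p = 0.20) and Arpc2 at 0.57 (adjusted p = 0.35). Was, with both means below the floor, was at -0.44 (adjusted p = 0.48).

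Upstream and downstream of the filament, 0 of 9 genes of signalling from actin to SRF passed; Limk2, a cofilin kinase, was at 1.28 ± 0.47 (adjusted p = 0.22), the small GTPase gene Rhoc at 0.90 (adjusted p = 0.23) and the kinase gene Rock1 at 0.51 (adjusted p = 0.38). Of 8 folding genes, which encode chaperonin and prefoldin subunits that fold new actin, 0 passed, with a median of -0.09. Cct6a, with its SRF-VP16 mean below the floor, was at -0.70 (adjusted p = 0.51), Cct5 at -0.25 and Tcp1 at 0.30. In these lists the median differences were 0.69 (monomer-binding), 0.33 (capping), 0.41 (nucleation) and 0.44 (signalling), beside 0.04 over all probe sets. None had a member that fell at an adjusted p under 0.05. Of all 9664 probe sets 33 fell, so a count of 0 says little about the lists.

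**Figure D5:**
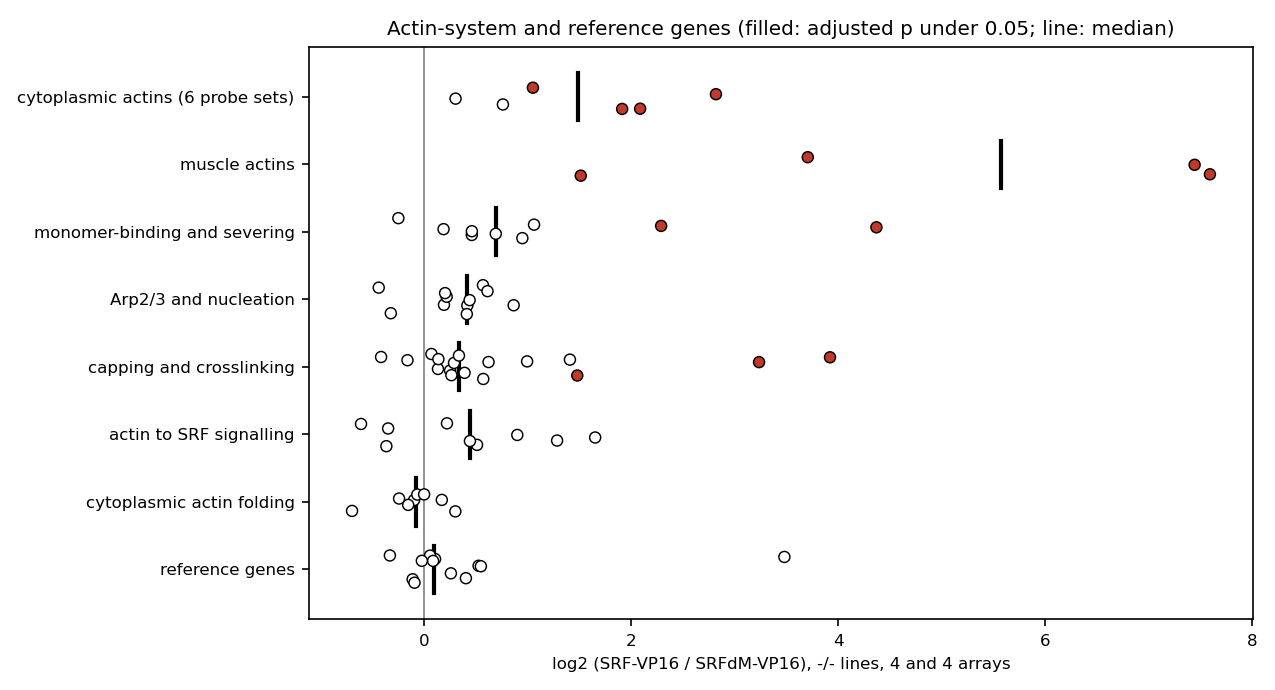
Log2 difference of SRF-VP16 minus SRFdM-VP16 in the -/- lines for the 6 sense probe sets of the cytoplasmic actins and for the members of each gene list, with points for probe sets, lines for medians and filled points for an adjusted p under 0.05. The median is highest for muscle actins (5.58) and near 0 for folding genes (-0.09) and reference genes (0.09). Single genes of these 2 lists lie further out, such as B2m (3.48) and Cct6a (-0.70).

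The 5 genes whose group means were most like those of Actg1 over the 12 groups, by Pearson correlation of log2 values, were Tes, a LIM protein of focal adhesions (0.90), Inhba, the inhibin beta-A subunit (0.90), Krt18, keratin 18 (0.90), Tpm4 (0.90) and Rbms1, an RNA-binding protein (0.89). In the -/- lines Inhba, Krt18 and Rbms1 rose by 4.23, 4.91 and 2.22 on the log2 scale (limma, adjusted p = 0.0037, 0.0081 and 0.024), and Tes was at 2.32 (adjusted p = 0.14). The 12 groups used to choose these genes include those compared here. The choice thus favoured genes that rise with Actg1, and these p-values are no separate support. The 5 genes most like the first Actb probe set were Rad51d (0.84), Muc1 (0.76), Tent5c (0.75), Cdh15 (0.74) and Asap1 (0.72), all dim, with group means of 126.5 or less in the -/- lines, and none passed there.

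Summed levels of markers of other cell types were also set beside these results, with no test made. In the -/- lines trophoblast markers, 5 genes of which 0 were above the floor on all arrays, summed to 711 to 3041 with SRF-VP16, 40 to 508 with SRFdM-VP16 and 213 to 373 with vector, so that the SRF-VP16 sums overlapped neither of the others. Krt7, a keratin, reached 2584 among them, while the highest values of Eomes, Tpbpa, Hand1 and Cdx2 over all 23 arrays were 305, 235, 143 and 125. Trophoblast sums also did not overlap in the lines where no cytoplasmic actin probe set passed: they were 978 to 991 with SRF-VP16 against 146 to 292 with SRFdM-VP16 in wild type, and 383 to 472 against 90 to 307 in E99. In the -/- lines ES cell markers summed to 34553 to 61178 with SRF-VP16, 54205 to 100768 with SRFdM-VP16 and 74099 to 95726 with vector. The SRF-VP16 sums lay wholly below the vector sums and overlapped the SRFdM-VP16 sums. Feeder fibroblast markers (627 to 1315, against 848 to 1180 with SRFdM-VP16) and primitive endoderm markers (1201 to 2297, against 1551 to 3079) overlapped too. The part of these differences in the actin results was not tested.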

How the data were processed

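The 23 arrays, of total RNA from mouse ES cells, were grouped by their labels. Each value is an intensity on a linear scale as deposited by the authors. How it was computed and scaled is not given in the sources used here. The number of arrays limits the precision. Nothing in the labels says that replicates were separate cultures, so p-values cover only how far these samples spread, which may be technical.

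Intensities were used as deposited, raised to a floor of 58 (the 40th percentile of all values) and put on the log2 scale, so changes of dim probe sets are understated. Probe sets above their array's 40th percentile on 2 or more arrays were tested, 9664 of 12448, including 11 beta-actin and Gapdh controls. The other 54 controls were left out. Groups were compared two-sided with limma 3.58.1 (R 4.3.3), 1 mean for each group and a trend on the variance. There were 11 residual degrees of freedom. P-values were adjusted over all tested probe sets (Benjamini-Hochberg, 5%). The fit was tested on simulated data. Ratios on an array were tested by exact permutation (scipy 1.17.1, Python 3.11.15), adjusted over 14 tests. The permutations exchanged arrays between lines and did not keep to them. Of the probe sets without controls, 10141 had 1 gene symbol, 362 several and 1933 none. Every member was named, with up to 3 genes per list by smallest adjusted p (all of the muscle actins) and the 5 most correlated with each brightest member. Members and lists were chosen with earlier results of these data known. Replicate numbers (1 and 2) pair nothing by the labels. All per-sample columns were used. The targeted gene was not analysed here. Alternatives covered scaling, floor, filter, transform, samples fitted, control plasmid, replicate block (also with crossed numbers, added after seeing the data), single lines and leaving out each array.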

Additional observations from a re-analysis of the deposited data

Results flagged for a closer look

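Actg1 differed in its SRF-VP16 response between genotypes: the effect against SRFdM-VP16 was larger in the -/- lines than in wild type by 2.174 on the log2 scale (limma, adjusted p = 0.0019), with 1.91 in the -/- lines and -0.26 in wild type.

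The beta-actin middle probe set differed in the same way, by 2.255 (limma, adjusted p = 0.036), with 2.09 in the -/- lines and -0.17 in wild type.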

How the results depend on the processing

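The Actg1 difference between SRF-VP16 and SRFdM-VP16 in the -/- lines kept its direction and its call under the 14 other settings run and without each of its 8 arrays in turn (1.798 to 2.026). Over all results, 692 values were recomputed under settings other than leaving out each array in turn. Some of these settings used fewer arrays, as where a fit held only those compared. Of these 631 gave the same direction and call, 29 turned the direction, 27 lost a call, 4 gained one and 1 moved. The causes of these changes were not tested.

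The replicate number as a block left Actg1 in the -/- lines at 1.912 and changed 1 call, that of the beta-actin middle probe set between genotypes (2.255, adjusted p = 0.056). The differences between replicates 2 and 1 correlated between the groups of a line at -0.35 to 0.42. Over all 55 pairs of the 11 groups with 2 arrays, the sign followed a split of 3 groups (wild type with SRF-VP16, E99 with SRFdM-VP16 and with vector) from the others, and whether numbers were exchanged there was not tested. A block with the numbers of those 3 crossed, chosen after seeing the data, called 516 probe sets in the -/- lines, 5 in E99, 2 in wild type, 416 over all lines, 12 between genotypes, 11 between E81 and E100, 122 for SRFdM-VP16 against vector, and 26, 7 and 83 for -/- against wild type with vector, SRFdM-VP16 and SRF-VP16.

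After division by the array median, Actg1 lost its call over all lines (0.498, adjusted p = 0.10), between genotypes (2.071), and for -/- against wild type with vector (-1.299) and SRFdM-VP16 (-1.759). It turned in E99 (-0.532), for E81 against E100 (-0.868) and for SRFdM-VP16 against vector (0.487). The first Actb probe set turned over all lines (-0.287), between E81 and E100 (-0.538) and for SRFdM-VP16 against vector (0.545), and the second over all lines (-0.060). Beta-actin 3′ turned in the -/- lines (-0.080), wild type (-0.026), E99 (-0.477), all lines (-0.166), between genotypes (-0.053) and between E81 and E100 (-0.748), and in E99 so did 5′ (-0.055) and middle (-0.143).

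Division by Gapdh 3′ ended the Actg1 calls between genotypes (2.247) and for -/- against wild type with vector (-1.167) and SRFdM-VP16 (-1.710), and turned E99 (-0.013). A fit of only the arrays compared ended the same 3 calls at unchanged values (2.174, -1.223 and -1.666). Quantile normalization turned Actg1 (-0.039) and Actb (-0.162) between E81 and E100, Actb for SRFdM-VP16 against vector (0.012) and beta-actin 3′ between genotypes (-0.038). In E100 alone the second Actb probe set was at -0.028.

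With vector as the control, the second Actb probe set turned in E99 (0.114), beta-actin 3′ between genotypes (-0.145) and Actg1 between E81 and E100 (-0.654). Gapdh 5′ over 3′ turned in the -/- lines (-0.214) and all lines (-0.192), beta-actin 3′ over Gapdh 3′ likewise (-0.158 and -0.110), and Actb over Gapdh 3′ in all lines (-0.182). Actg1 over Gapdh 3′ in the -/- lines moved to 1.135.

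Leaving out each array in turn gave these ranges where a direction or call changed. For -/- against wild type with vector, Actg1 ran from -1.336 to -0.986 and Actb from -0.600 to 0.314, and with SRF-VP16 Actb ran from -0.157 to 0.621. SRFdM-VP16 against vector gave -0.239 to 0.084 for Actb. SRF-VP16 against SRFdM-VP16 gave -0.072 to 0.317 for Actb over all lines, -0.594 to 0.388 (5′) and -0.581 to 0.243 (middle) in wild type, and -0.109 to 0.241 (Actg1) and -0.042 to 0.284 (3′) in E99. Between genotypes 3′ ran from -0.238 to 0.336. Between E81 and E100 the ranges were -0.171 to 0.284 (Actg1), -0.393 to 1.164 (Actb) and -0.398 to 0.750 (3′). Ratios ran from -0.089 to 0.357 and -0.071 to 0.131 for Gapdh 5′ over 3′ in the -/- lines and in all lines, from -0.123 to 0.463 and -0.036 to 0.215 for beta-actin 3′ over Gapdh 3′, and from -0.170 to 0.196 for Actb over Gapdh 3′ in all lines.

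Counts of probe sets called moved by more than 1.5 times over the settings, and without 1 array at a time. For SRF-VP16 against SRFdM-VP16 the count was 274 in the -/- lines (102 to 516 over the settings, 199 to 522 without 1 array), 2 in wild type (0 to 12, 2 to 35), 4 in E99 (0 to 21, 6 to 28) and 195 over all lines (80 to 416, 111 to 435). It was 9 between genotypes (3 to 20, 5 to 43), 15 between E81 and E100 (0 to 36, 15 to 433) and 77 for SRFdM-VP16 against vector (0 to 179, 8 to 372). For -/- against wild type it was 22 with vector (1 to 135, 18 to 61), 6 with SRFdM-VP16 (0 to 21, 6 to 52) and 44 with SRF-VP16 (6 to 83, 49 to 106). The counts of 522, 435, 433 and 372 came without the second E81 array with SRFdM-VP16.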
